A study of Mus musculus with 8 samples.

Results

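The binding of NanogBiD and of native Oct4, the pair of factors that the study brings together to reprogram fibroblasts, was compared from 1 CUT&Tag library of each. All peaks of both lists were taken, 75769 for NanogBiD and 54794 for Oct4, out of 661009 peaks in the 8 libraries of the series. Peaks that overlapped by at least 1 bp were merged, which gave 111546 regions. A region with peaks of both lists was called shared, and the others were called NanogBiD only or Oct4 only. Both libraries came from mouse embryonic fibroblasts (MEFs) on day 3 after the factors were delivered, and an antibody against the Flag epitope brought the transposase Tn5 to the tagged factor. Per the study's methods the MEFs carried the OG2 reporter and the factors were delivered by retrovirus. NanogBiD is Nanog with 70 residues of SS18 at its N-terminus, the stretch that binds BRG1, and Oct4 is the native factor without this domain. The study's text also uses the name NanogBiD for cells that receive NanogBiD together with Oct4, and the labels do not say which other factors the cells of either library received. Each group held 1 library, so no difference below has a replicate check, and an interval given with a share covers counting error over peaks of these lists only.

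Oct4 is a POU-domain transcription factor that recognises an octamer of DNA, and Nanog is a homeodomain protein that recognises a short motif with a TAAT-type core. In pluripotent cells both belong to the network that keeps the cells undifferentiated, and fibroblasts express neither. BRG1 is the ATPase of the BAF complex, which uses ATP to slide or evict nucleosomes and so opens chromatin. Fibroblast chromatin that is already open lies at promoters and at enhancers that hold the motifs of AP-1, TEAD and RUNX factors, which are active in mesenchymal cells.

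The following sequences show the motif that belongs to each class at its highest-ranked regions on autosomes. Each runs 50 bp to either side of a summit, the base with the most tags in a peak, and was read from the plus strand of GRCm38 (mm10). Capitals mark the octamer (ATGCAAAT on either strand) and the NANOG motif (GCCATTA on either strand). Shared regions had to hold both motifs around the NanogBiD summit, NanogBiD only regions the NANOG motif and Oct4 only regions the octamer.
Shared region 1, NanogBiD summit, chr5:133940120-133940220: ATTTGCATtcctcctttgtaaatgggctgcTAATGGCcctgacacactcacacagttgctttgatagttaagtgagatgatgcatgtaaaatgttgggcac
Shared region 2, NanogBiD summit, chr1:161912759-161912859: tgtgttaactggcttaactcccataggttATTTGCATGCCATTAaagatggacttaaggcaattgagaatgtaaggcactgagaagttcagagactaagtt
Shared region 3, NanogBiD summit, chr19:32295710-32295810: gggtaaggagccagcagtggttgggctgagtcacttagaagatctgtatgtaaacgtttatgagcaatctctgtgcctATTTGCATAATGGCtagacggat
NanogBiD only region 1, chr1:84549815-84549915: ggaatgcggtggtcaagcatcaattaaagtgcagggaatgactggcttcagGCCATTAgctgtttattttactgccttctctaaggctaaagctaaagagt
NanogBiD only region 2, chr2:51360396-51360496: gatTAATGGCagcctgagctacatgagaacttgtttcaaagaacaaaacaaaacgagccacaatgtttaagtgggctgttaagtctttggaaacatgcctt
NanogBiD only region 3, chr15:95906066-95906166: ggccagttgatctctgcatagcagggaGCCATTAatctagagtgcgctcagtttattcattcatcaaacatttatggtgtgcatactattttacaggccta
Oct4 only region 1, chr14:16289214-16289314: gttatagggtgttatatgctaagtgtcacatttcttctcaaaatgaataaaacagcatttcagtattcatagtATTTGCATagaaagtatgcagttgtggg
Oct4 only region 2, chr8:27595703-27595803: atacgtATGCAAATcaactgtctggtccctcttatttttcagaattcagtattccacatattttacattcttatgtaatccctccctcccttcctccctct
Oct4 only region 3, chr12:101106252-101106352: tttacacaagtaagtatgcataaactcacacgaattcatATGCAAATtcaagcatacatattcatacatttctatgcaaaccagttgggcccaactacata
In shared region 2 the octamer ran directly into the NANOG motif, with 7 bp between the centres of both, and in shared region 3 they overlapped, with 6 bp between the centres. In shared region 1 the centres lay 29 bp apart. Other motifs were not marked: shared region 3 also held an AP-1 motif (TGAGTCA) and shared region 1 a TEAD motif (CATTCCT). Shared regions with both the octamer and the NANOG motif were rare. An octamer lay within 50 bp of either summit in 623 of 18488 shared regions and a NANOG motif in 394. Both lay in 19 (0.103%, 95% interval 0.0619 to 0.160%). The examples were picked for holding both, and whether these motifs meet more often than unrelated ones was not tested. The shared regions shown scored 274 for NanogBiD and 135 for Oct4 in region 1, 74.2 and 81.1 in region 2, and 65.1 and 187 in region 3. The score is the peak caller's p on a log10 scale, sign turned and multiplied by 10 (as deposited), with a minimum of 50 in both lists. Region 3 lay in an intron, 6.18 kb from the nearest start site, that of Sgms1, and regions 1 and 2 were intergenic, 20.2 and 20.7 kb from a start site. The NanogBiD only regions shown scored 1040, 1025 and 943. They needed only the NANOG motif and the shared ones both motifs, so the examples do not compare the strength of the classes. Over whole classes the median NanogBiD score was higher in shared regions (223) than in NanogBiD only regions (120). NanogBiD only region 1 lay in an intron, 74.0 kb from the nearest start site, that of Dner. The Oct4 only regions shown scored 919, 751 and 743, and region 1 lay in an intron, 8.29 kb from a start site of Ngly1. All 3 Oct4 only regions also had a peak in the Oct4BiD library and none in native Nanog, whereas all 3 NanogBiD only regions had a peak in native Nanog and none in Oct4BiD.

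Most regions belonged to 1 factor. Shared regions numbered 18488 (16.6% of all regions, 16.4 to 16.8%), NanogBiD only regions 57148 (51.2%) and Oct4 only regions 35910 (32.2%). Shared regions held 24.6% of the NanogBiD peaks (24.3 to 24.9%) and 34.5% of the Oct4 peaks (34.1 to 34.9%). In 17975 of the shared regions (97.2%) 1 peak of each list met. The Jaccard index, shared regions over all regions, was 0.166. Among the 24 pairs of libraries of different factors the index ran from 0.0799 to 0.225 with a median of 0.148, and 9 pairs stood above NanogBiD with Oct4 and 14 below. Native Nanog with Oct4 gave 0.181 and NanogBiD with Oct4BiD gave 0.185. The same factor in its other form shared far more: 0.552 for NanogBiD with Nanog and 0.365 for Oct4 with Oct4BiD.

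The overlap index was lower among the highest-ranked peaks. The 20000 highest-scoring peaks of each list merged into 35394 regions, of which 4593 (13.0%) were shared, 15407 NanogBiD only and 15394 Oct4 only. They held 23.0% of the top NanogBiD peaks and 23.0% of the top Oct4 peaks. The Jaccard index was 0.130, whereas with as many top NanogBiD peaks as the whole Oct4 list holds it was 0.173. The value of 0.130 stood within a range of 0.0371 to 0.145 over the 24 pairs of different factors, of which 3 stood above it. Of the 15407 top NanogBiD peaks without a top Oct4 peak, 3816 (24.8%) overlapped an Oct4 peak of lower rank.

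Stronger peaks were shared more often in both lists. Of the 1000 highest-scoring NanogBiD peaks, 537 (53.7%, 50.6 to 56.8%) overlapped an Oct4 peak. The share was 36.9% at ranks 10001 to 20000 and 12.6% (12.2 to 13.0%) at ranks 50001 to 75769. Oct4 peaks fell less with rank: 481 of the top 1000 (48.1%, 45.0 to 51.3%) overlapped a NanogBiD peak, 39.3% did at ranks 10001 to 20000, and 25.1% (23.9 to 26.4%) at the end of the list. Rank 20000 stood at a score of 244 in the NanogBiD list and of 137 in the Oct4 list. The scores were not scaled to depth. A score of one factor printed beside that of the other gives the value in each list and is not a measure of which factor bound more.

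**Figure D1:**
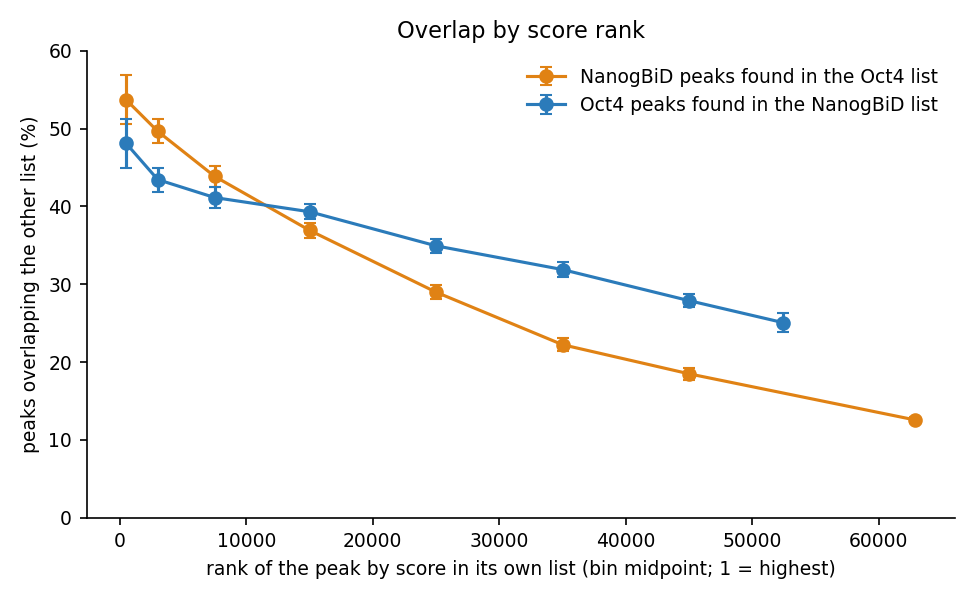
Share of peaks that overlapped the other list (vertical axis, %) against the rank of the peak by score in its own list (horizontal axis, midpoint of each rank bin), for NanogBiD peaks and Oct4 peaks. Bars are exact 95% binomial intervals. The NanogBiD share fell from 53.7% to 12.6% and the Oct4 share from 48.1% to 25.1%.

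Within shared regions the strengths of both factors were only loosely tied. The median NanogBiD score was 223 (quartiles 123 and 362) in shared regions and 120 (74.5 and 214) in NanogBiD only regions. The median Oct4 score was 122 (78.6 and 208) in shared regions and 98.9 (67.1 and 165) in Oct4 only regions. Summit heights, in whole tags and not scaled to depth, had medians of 27 against 18 for NanogBiD and 18 against 16 for Oct4. Across the 18488 shared regions Spearman's rank correlation of the NanogBiD and Oct4 scores was 0.223; regions of 1 pair of libraries share both libraries and their depth, so this is a description. Of the shared regions, 4594 (24.8%) ranked in the top 20000 of both lists, 3815 (20.6%) in that of NanogBiD alone, 3600 (19.5%) in that of Oct4 alone and 6479 (35.0%) in neither. Merged shared regions were wider, with a median of 1412 bp against 842 bp for NanogBiD only and 748 bp for Oct4 only, and a wider region overlaps other peaks more readily.

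The strongest region common to both factors lay in an intron at chr5:136402498-136404537, 28.2 kb from the nearest start site, that of the microRNA gene Mir721. It held the highest NanogBiD score of all, 1494 (height 86 tags), and an Oct4 score of 1061 (height 74 tags, rank 11). The second, chr5:102628631-102630686, lay in an intron 95.4 kb from a start site of Arhgap24, with scores of 1086 and 977 and heights of 102 and 93 tags. The other 3 of the top 5 were promoter regions of Ppp2r3d (1033 and 1584), 4932412D23Rik (1003 and 1076) and the noncoding gene Gm26917 (958 and 923). At 4932412D23Rik the summits lay 2 bp apart, but at Ppp2r3d and Gm26917 they lay 1953 and 1833 bp apart inside one wide region. These 3 promoter regions and the one near Mir721 had a peak in all 8 libraries of the series. The lists were called without a control library, so binding at such regions cannot be told from signal unrelated to the factors.

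NanogBiD only regions were led by chr9:79534008-79535888, an intergenic region 15.3 kb from Gm10635, with the second highest NanogBiD score of the list, 1335 (height 69 tags). The next were the promoter of the noncoding gene Gm13684 (score 1162), an exonic region 12.0 kb from a start site of Scd3, a stearoyl-CoA desaturase gene (1160), an intergenic region 108 kb from Gm26089 (1137) and an intron of Aplp2, which encodes an amyloid precursor-like protein (1116). All 5 had a peak in native Nanog, and the Gm13684 promoter had one in every library but Oct4. Oct4 only regions were led by chr1:10256071-10257983, an intergenic region 24.6 kb from Arfgef1, which encodes an exchange factor for ARF GTPases (score 1219, height 81 tags). The next were in an intron 21 kb from a start site of Col5a2, a fibrillar collagen gene (1116), and in intergenic sequence 13.5 kb from Scarb2, which encodes a lysosomal membrane protein (1093), 3.18 kb from Gm43659 (1008) and 75.6 kb from Gm48723 (978). All 5 had a peak in Oct4BiD, and 3 of the 5 had one in native Nanog although NanogBiD had none there.

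The summits of both factors lay close together where regions were shared. The median distance from the NanogBiD summit to the nearest Oct4 summit was 97 bp, with quartiles of 35 and 265 bp. In 6076 of 18488 shared regions (32.9%, 32.2 to 33.6%) the summits lay within 50 bp, in 9420 (50.95%) within 100 bp and in 12805 (69.3%) within 200 bp, while 2716 (14.7%) had summits more than 500 bp apart. For comparison the median was 45 bp between Oct4 and Oct4BiD, 48 bp between NanogBiD and Nanog, and 85 bp between native Nanog and Oct4. Between NanogBiD and other factors it was 95 bp (Sox2), 107 bp (Sox2BiD), 110 bp (Nr5a2BiD) and 167 bp (Nr5a2). The spacing of 97 bp was therefore not particular to Oct4, and the overlap of the peaks by construction limits it. Promoter regions had closer summits than distal ones, with medians of 74 bp (n = 7635) and 118 bp (n = 10853). The spacing was 84 bp where both peaks ranked in their top 20000 and 90 bp where neither did.

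**Figure D2:**
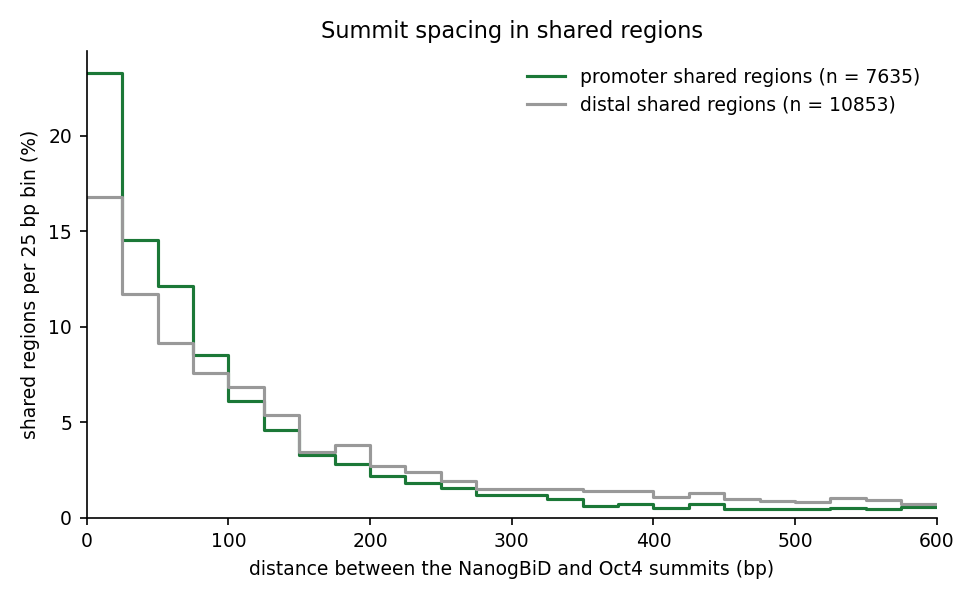
Percent of shared regions (vertical axis) in each 25 bp bin of the distance between the NanogBiD and Oct4 summits (horizontal axis, bp, shown to 600), for promoter and distal shared regions. Both curves are highest in the first bin, at 23.3% of promoter and 16.8% of distal regions, and decline from there.

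Outside shared regions the summits of both factors lay kilobases apart, and regions with overlapping peaks are by construction not in these classes. From a NanogBiD only summit the nearest Oct4 summit lay at a median of 12.0 kb (quartiles 5.55 and 24.7 kb), with 6.47% within 2 kb and 43.6% within 10 kb. From an Oct4 only summit the nearest NanogBiD summit lay at a median of 10.7 kb (4.47 and 28.3 kb), with 8.63% within 2 kb and 47.8% within 10 kb.

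Shared regions were the most promoter-rich class. A region was placed at a promoter when its summit lay no more than 2 kb from the start of any annotated transcript, and shared regions were placed by their NanogBiD summit. This held for 7635 of 18483 shared regions on placed chromosomes (41.3%, 40.6 to 42.0%), 9854 of 57144 NanogBiD only regions (17.2%, 16.9 to 17.6%) and 3600 of 35899 Oct4 only regions (10.03%, 9.72 to 10.3%). Of the bases of the 19 autosomes and X, 10.9% lie within 2 kb of such a site. With all peaks the Oct4 only class was not above this share of the genome. Among the top 20000 peaks of each list it was (13.2%, 12.7 to 13.8%). Within 0.5 kb the classes stood further apart, at 33.0%, 8.35% and 2.80%. Median distances to a start site were 5.10 kb, 11.5 kb and 16.4 kb. Introns held 30.8% of shared, 43.2% of NanogBiD only and 45.8% of Oct4 only regions, and intergenic sequence held 26.3%, 37.2% and 42.1%.

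**Figure D3:**
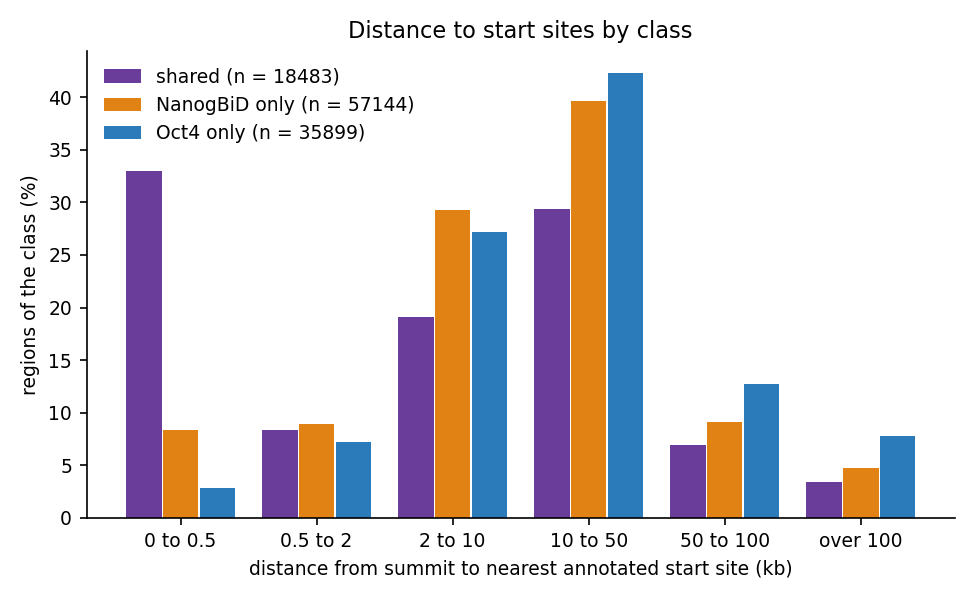
Percent of the regions of each class (vertical axis) by distance from the summit to the nearest annotated start site (horizontal axis, kb), on placed chromosomes. Shared regions are most frequent of the 3 classes within 0.5 kb (33.0%, against 8.35% and 2.80%), and Oct4 only regions are most frequent beyond 10 kb.

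The order of the classes was the same among the top 20000 peaks, with promoter shares of 51.5%, 21.4% and 13.2%. Within the shared class the promoter share was not highest at the strongest peaks. Among shared regions it was 40.1% for NanogBiD ranks 1 to 5000, 50.8% for ranks 5001 to 20000 and 28.1% beyond rank 40000, and by Oct4 rank it was 30.1% for ranks 1 to 5000, 44.0% for ranks 5001 to 20000 and 39.8% beyond rank 40000.

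The base composition of the summits followed the same order. Median GC content within 50 bp of the summit was 48.5% in shared regions at either summit, 44.6% in NanogBiD only and 40.6% in Oct4 only regions. At least 4 CpG dinucleotides lay in that window at 32.3% of NanogBiD summits and 34.2% of Oct4 summits of shared regions, at 9.48% of NanogBiD only and at 3.11% of Oct4 only summits. Oct4 only summits also fell into repeats, as soft-masked in the assembly, more often than the others: 26.4% (25.9 to 26.8%) did, against 9.27% of NanogBiD only summits and 7.15% and 10.1% of the NanogBiD and Oct4 summits of shared regions. Over whole lists the share was 20.8% for Oct4, 17.9% for Oct4BiD and 8.22 to 13.1% for the other 6 libraries.

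Each one-sided class was mostly found again with the other form of its own factor. Of the NanogBiD only regions 63.5% (63.1 to 63.9%) had a peak in native Nanog, 18.9% in Oct4BiD, 19.3% in Sox2, 38.1% in Sox2BiD, 26.4% in Nr5a2 and 22.7% in Nr5a2BiD. Of the Oct4 only regions 66.8% (66.3 to 67.2%) had a peak in Oct4BiD, and between 8.48% (native Nanog) and 15.9% (Sox2BiD) had one in the libraries of other factors. Shared regions were found more often in every other library: 90.6% in native Nanog, 85.9% in Oct4BiD, 71.4% in Sox2BiD, 56.5% in Nr5a2, 55.6% in Nr5a2BiD and 45.1% in Sox2. Among distal shared regions alone these shares were 87.8%, 79.1%, 60.96%, 36.2%, 37.0% and 44.2%. Over whole lists 70.1% of NanogBiD peaks overlapped a native Nanog peak and 73.1% of Oct4 peaks an Oct4BiD peak. Shared regions were wider than the others, and the other lists held from 58162 (Sox2) to 120594 (Sox2BiD) peaks. Wider regions and longer lists overlap more readily, so these shares do not measure binding alone.

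**Figure D4:**
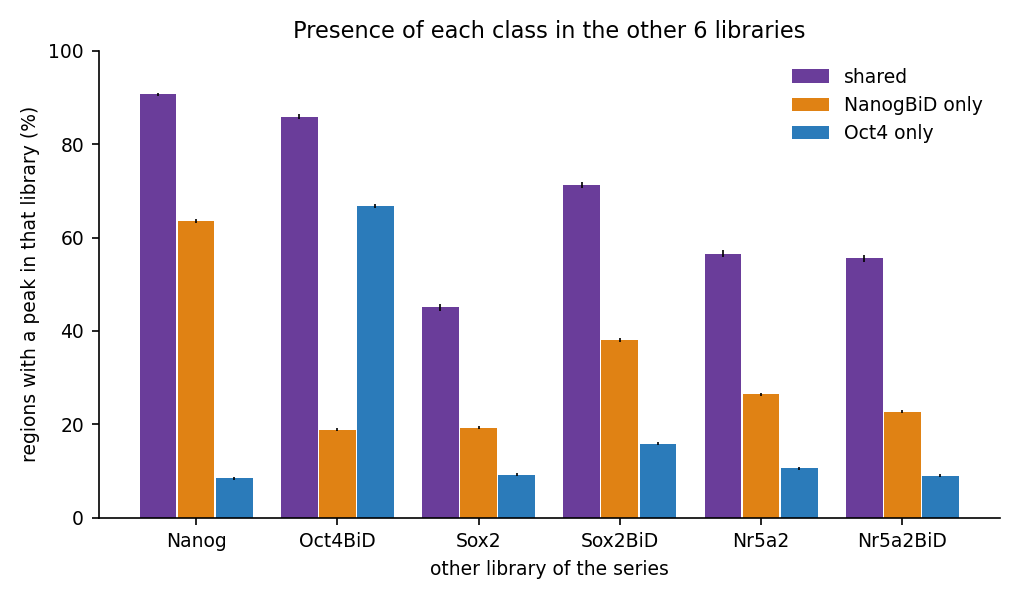
Percent of the regions of each class (vertical axis) with a peak in each of the other 6 libraries (horizontal axis), with exact 95% binomial intervals. Shared regions stand highest in each library, NanogBiD only regions reach 63.5% in native Nanog, and Oct4 only regions reach 66.8% in Oct4BiD.

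Shared regions included many sites common to all libraries. A peak in all 6 other libraries was present at 4298 shared regions (23.2%), of which 68.6% were promoters, at 680 NanogBiD only regions (1.19%) and at 103 Oct4 only regions (0.287%). Only 131 shared regions (0.709%) had no peak in any other library, against 11250 NanogBiD only regions (19.7%) and 8960 Oct4 only regions (24.95%). A narrower set of 1797 shared regions had peaks in both Nanog libraries and both Oct4 libraries and in no Sox2 or Nr5a2 library. Of these 12.6% (11.1 to 14.3%) were promoters, with a median score of 161 for NanogBiD and 143 for Oct4.

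NanogBiD peaks at Oct4 sites could also be read against native Nanog. At 1730 shared regions native Nanog had no peak. Their median NanogBiD score was 86.1, against 243 where native Nanog had one, and their median Oct4 score was 104 against 124. The promoter share was 23.3% without and 43.2% with native Nanog. A peak of low score is the one most easily missed in another library, and no test of the difference between the forms was possible with 1 library of each.

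The motif of each factor followed its own summits. A match within 50 bp of the summit was counted on either strand, and its share was set over the average share in equally long windows whose centres lay 500 bp away on both sides, which gives an enrichment of 1 where the summit is like its flanks. The octamer lay at 4.87% of Oct4 only summits, an enrichment of 6.38 (95% interval 5.80 to 7.02), and at 0.494% of NanogBiD only summits, 0.855 (0.744 to 0.982). That value was not below 1 throughout: it was 1.04 (0.809 to 1.34) among the top 20000 peaks and 1.45 (1.157 to 1.816) in the 10805 NanogBiD only regions with an Oct4BiD peak. The NANOG motif lay at 2.85% of NanogBiD only summits, an enrichment of 3.45 (3.18 to 3.73), and at 0.835% of Oct4 only summits, 0.966 (0.842 to 1.11). Over the summits of all 8 lists the octamer lay at 2.21% and the NANOG motif at 1.20%.

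Inside shared regions the 2 summits of the same region differed in motif. At the Oct4 summit the octamer was enriched 5.62-fold (4.76 to 6.63), and at the NanogBiD summit 1.77-fold (1.48 to 2.12). For the NANOG motif the order was the other way, with 1.02 (0.846 to 1.24) at the Oct4 summit and 2.25 (1.91 to 2.65) at the NanogBiD summit. An octamer lay at the Oct4 summit alone in 400 shared regions, at the NanogBiD summit alone in 92 and at both in 131. A NANOG motif lay at the NanogBiD summit alone in 234, at the Oct4 summit alone in 91 and at both in 69. Where the whole shared region held exactly 1 octamer, the Oct4 summit was the nearer one in 1262 of 1999 regions (63.1%, 60.97 to 65.25%), and where it held 1 NANOG motif, the NanogBiD summit was nearer in 1181 of 2152 (54.9%, 52.75 to 57%).

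**Figure D5:**
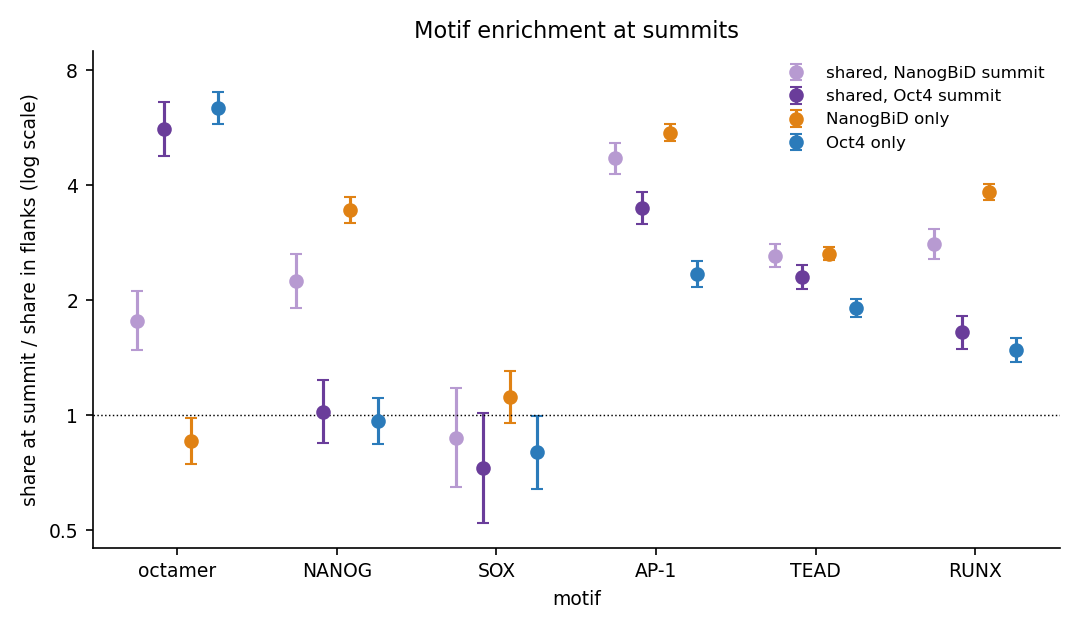
Share of summits with a motif within 50 bp over the share in flanks centred 500 bp away (vertical axis, log scale, dotted line at 1) for 6 motifs (horizontal axis), at the NanogBiD and Oct4 summits of shared regions and at the summits of the one-sided classes. Bars are 95% intervals from match counts. The octamer stands at 6.38 in Oct4 only and 0.855 in NanogBiD only regions (1.04 in the top 20000), and the NANOG motif at 0.966 and 3.45.

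Motifs of factors active in fibroblasts were common in all classes, and among these classes the enrichments were highest at NanogBiD only summits. AP-1 motifs (TGACTCA or TGAGTCA, bound by Fos and Jun proteins) lay at 9.05% of NanogBiD only summits (enrichment 5.49), at 7.43% and 6.14% of the NanogBiD and Oct4 summits of shared regions (4.70 and 3.49), and at 3.76% of Oct4 only summits (2.34). RUNX motifs (AACCACA) followed that order with enrichments of 3.84, 2.80, 1.65 and 1.48, and TEAD motifs (CATTCCA or CATTCCT) with 2.65, 2.62, 2.30 and 1.91. The intervals of the TEAD values 2.65 and 2.62 overlapped (2.55 to 2.75 and 2.44 to 2.81). The SOX motif (CCATTGTT) stayed between 0.729 and 1.12. Over the summits of all 8 lists an AP-1 motif lay at 7.31% and a SOX motif at 0.993%. The AP-1 enrichment was not particular to NanogBiD. Over whole lists it was 5.96 (native Nanog), 5.38 (Sox2BiD), 5.31 (NanogBiD), 5.25 (Sox2) and 4.39 (Nr5a2BiD). It was lower for Nr5a2 (3.39), Oct4 (2.75) and Oct4BiD (2.20).

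The octamer was more enriched at sites where Oct4 had a peak in both forms. In Oct4 only regions with an Oct4BiD peak it was enriched 7.74-fold (6.93 to 8.63), and without one 2.97-fold (2.43 to 3.64). The median Oct4 score was 120 with an Oct4BiD peak and 74.2 without, so these regions also differed in strength. In shared regions with an Oct4BiD peak the enrichment at the Oct4 summit was 6.29 (5.28 to 7.50). In the 2605 shared regions without one it was 1.39 (0.761 to 2.52), an interval that includes 1, while AP-1 stood at 4.60 (3.71 to 5.70). Those 2605 regions had a promoter share of 13.0%, against 45.9% with Oct4BiD, and a median Oct4 score of 77.4 against 135. The NANOG motif was not lower where native Nanog was missing. In NanogBiD only regions its enrichment was 4.14 (3.65 to 4.70) without a native Nanog peak and 3.04 (2.75 to 3.37) with one. AP-1 stood at 3.76 and 6.34 there, and the median NanogBiD score at 81.8 and 159. At the 1730 shared regions without native Nanog the octamer was enriched 10.7-fold (6.40 to 17.9) at the Oct4 summit, from 91 matches, and the NANOG motif 3.13-fold (2.01 to 4.85) at the NanogBiD summit, from 50 matches.

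Genes were described next, first by promoters. The start of any annotated transcript of a gene counted, so a promoter region can lie inside the gene or near its end. Of 21755 protein-coding genes on the autosomes and X, 33.8% had a shared region within 2 kb of a start site, 28.9% a NanogBiD only region and 9.38% an Oct4 only region. Within 100 kb these shares were 77.4%, 87.5% and 84.5%, and the median gene had 2 shared, 6 NanogBiD only and 3 Oct4 only regions in that range.

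Genes that work in fibroblasts often had a shared region at the promoter, and so did BAF subunit genes (63.2%) and ribosomal protein genes (58.3%). Over all protein-coding genes the promoter shares were 33.8% (shared), 28.9% (NanogBiD only) and 9.38% (Oct4 only). Of 12 genes of AP-1 and related bZIP factors, 9 had a shared region (75%), 3 a NanogBiD only region and 0 an Oct4 only region. Jun, which encodes a core AP-1 subunit, scored 323 for NanogBiD (height 51 tags) and 349 for Oct4 (40 tags), and its partner gene Fosl2 scored 234 (61 tags) and 180 (36 tags) with summits 82 bp apart. The count was also 9 of 12 among TEAD and Hippo genes, with 4 for NanogBiD only and 1 for Oct4 only. Wwtr1, which encodes the coactivator TAZ, was the strongest of them, with scores of 594 and 409 and heights of 66 and 67 tags. Lats2, which encodes a kinase that restrains YAP and TAZ, had no shared promoter region and instead 1 NanogBiD only region (242) and 2 Oct4 only regions (340 and 74.4). These lay near start sites inside the gene.

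Among 19 genes of the fibroblast matrix and surface, 12 had a shared promoter region (63.2%), 8 a NanogBiD only (42.1%) and 5 an Oct4 only region (26.3%). Over all protein-coding genes these shares were 33.8%, 28.9% and 9.38%. Lox, a lysyl oxidase that crosslinks collagen, had summits 1 bp apart with scores of 431 and 340 and heights of 78 and 54 tags. Fn1, the fibronectin gene, scored 320 and 305 with summits 19 bp apart. Thy1, which encodes a fibroblast surface protein, had a NanogBiD only region of score 140 at its upstream end. Its Oct4 only region, of score 536, lay near a start site at the downstream end of the gene. Of 14 mesenchymal regulators, 8 had a shared promoter region (57.1%), 8 a NanogBiD only and 1 an Oct4 only region. Snai2, which encodes a repressor of epithelial genes, scored 472 for NanogBiD (58 tags) and 126 for Oct4 (19 tags), and Twist1, another such regulator, scored 328 and 195. Tgfb2, which encodes a ligand that drives the mesenchymal state, had a NanogBiD only region of score 602 (65 tags) at a start site inside the gene. The promoters of Zeb1, Snai1 and Twist2 held NanogBiD only regions and no shared one.

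Promoter regions at epithelial genes were mostly NanogBiD only. Of 16 genes, 1 had a shared promoter region (6.25%), 8 a NanogBiD only region (50%) and 0 an Oct4 only region. Over all protein-coding genes these shares were 33.8%, 28.9% and 9.38%. The NanogBiD only share was not particular to this list, with 57.1% among mesenchymal regulators and 52.6% among BAF subunit genes. Esrp1, a splicing regulator of epithelial cells, was the strongest of the 16 with a NanogBiD score of 466 (41 tags), near a start site inside the gene. Cldn3, Dsp, Ocln, Krt19, Grhl2, Esrp2 and Tjp3, genes of junctions, keratin and epithelial regulation, scored between 50.8 and 147 in NanogBiD, and Tjp3 alone also had a shared region, with scores of 301 and 119. The promoters of Cdh1 and Epcam, which encode E-cadherin and an epithelial adhesion protein, held no region. Within 100 kb Cdh1 had 2 shared, 12 NanogBiD only and 4 Oct4 only regions, and Epcam had 1, 3 and 2.

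Genes of the pluripotency network had few promoter regions. Of 28 genes, 5 had a shared region within 2 kb (17.9%), 4 a NanogBiD only region (14.3%) and 0 an Oct4 only region. Over all protein-coding genes these shares were 33.8%, 28.9% and 9.38%. The 5 with a shared region were Klf2, Klf4, Klf5, Tbx3 and Tdgf1. Tbx3, a T-box factor gene, scored 395 and 202 with summits 4 bp apart, and Tdgf1, which encodes a Nodal coreceptor, scored 192 for NanogBiD (20 tags) and 560 for Oct4 (46 tags). The 4 NanogBiD only promoters were those of Dnmt3l, Dppa2, L1td1 and Lin28a, with scores of 73.2, 211, 267 and 75.5. Within 100 kb 15 of the 28 had a shared region (53.6%), 26 a NanogBiD only region (92.9%) and 23 an Oct4 only region (82.1%). Over all protein-coding genes the shares in that range were 77.4%, 87.5% and 84.5%. Of 18 neural transcription factor genes 3 had a shared promoter region (16.7%), those of Irx3, Neurog1 and Pax6, and 8 had a shared region within 100 kb (44.4%). Of 19 genes of BAF subunits 12 had a shared promoter region (63.2%), among them Smarca4, the gene of BRG1 (scores 412 and 309, summits 26 bp apart), and Ss18 (241 and 99.0). Of 24 cytosolic ribosomal protein genes, which every cell uses, 14 had one (58.3%), 10 a NanogBiD only and 0 an Oct4 only region.

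The genes that the study's text puts forward as targets or helpers of NanogBiD had mostly distal regions. Of 9, 1 had a shared promoter region (Klf4), 1 a NanogBiD only one (Sox15) and 0 an Oct4 only one. Over all protein-coding genes the promoter shares were 33.8%, 28.9% and 9.38%. Within 100 kb 4 of 9 had a shared region (44.4%), 8 a NanogBiD only region (88.9%) and 9 an Oct4 only region, against 77.4%, 87.5% and 84.5% of all protein-coding genes. The list was drawn from the study of these cells and is not independent of its data. The study drew on expression, accessibility and CUT&Tag data, the last from a later day than day 3, and on colony counts. The regions counted here therefore do not test its choice of genes.

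Esrrb, which encodes an orphan nuclear receptor of the pluripotency network, had 14 NanogBiD only regions within 100 kb of its start sites, 3 Oct4 only regions and 0 shared ones. The strongest was intronic, chr12:86363166-86366108, 3.11 kb from the nearest of its start sites, with a NanogBiD score of 495 (46 tags) and peaks in native Nanog and Oct4BiD. Of the other 13 NanogBiD only regions, with scores from 58.3 to 274, 2 had a peak in native Nanog. The 3 Oct4 only regions scored 58.2 to 63.6 and lay 30019 to 85780 bp downstream. No NanogBiD peak met an Oct4 peak at Esrrb.

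Sall4, which encodes a zinc finger factor of early embryos, had 1 shared, 4 NanogBiD only and 4 Oct4 only regions. Its shared region lay 13.7 kb downstream of a start site with low scores, 76.5 and 83.5, and summits 19 bp apart. The 4 Oct4 only regions lay 3.12 to 39.1 kb from a start site, and the highest of them scored 138 (20 tags). NanogBiD only regions lay 28452 bp upstream and 60042 to 71866 bp downstream, with scores from 80.2 to 183.

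Klf4, a Krüppel-like factor gene, had 5 shared, 6 NanogBiD only and 2 Oct4 only regions. Its promoter region scored 269 for NanogBiD (38 tags) and 254 for Oct4 (25 tags) with summits 434 bp apart, and a region 5.67 kb downstream of the start scored 303 and 221 with summits 2 bp apart. A region 46.7 kb upstream had the highest Oct4 score of the 5 shared ones, 383, and a NanogBiD score of 254.

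Sox15, a SOX factor gene, had 6 shared, 8 NanogBiD only and 3 Oct4 only regions in a gene-dense stretch, of which the strongest shared one lay 22.6 kb upstream (378 and 325). At its promoter NanogBiD scored 106 (20 tags) with no Oct4 peak. Mir302a, which belongs to a microRNA cluster of pluripotent cells, had 1 shared region, 7.61 kb downstream of its start, with scores of 347 (36 tags) and 186 (26 tags) and summits 6 bp apart. That summit lay 95 bp from a start site of Larp7, so the region was a promoter of another gene.

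Dppa5a, a marker gene of pluripotent cells, had 3 NanogBiD only regions, the highest of them 22.1 kb upstream with a score of 207, and 3 Oct4 only regions of 82.6 to 96.6. Sox2 had 2 of each kind with scores from 51.1 to 103, Foxb1 had 1 and 3, and Olig3 had 1 and 2. None of these 4 genes had a shared region within 100 kb.

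The genes of the delivered factors themselves were looked at last. Nanog had 2 shared, 10 NanogBiD only and 7 Oct4 only regions within 100 kb. The stronger shared one, chr6:122701848-122704570, lay 4.85 kb upstream of the start site of Nanog with scores of 636 (55 tags) for NanogBiD and 151 (18 tags) for Oct4, and the summits were 37 bp apart. The other lay 17.6 kb upstream, with 274 and 51.4 and summits 407 bp apart. The Oct4 only regions upstream scored up to 352, that one 31.1 kb away. NanogBiD had 2 summits on coding exons of Nanog, with heights of 25 and 47 tags, and Oct4 had 0. Tags there can also come from the delivered Nanog sequence, and that was not tested. Pou5f1, the gene of Oct4, had no summit of either list on its coding exons. Within 100 kb it had 1 shared region, 82.0 kb downstream (665 and 209), 7 NanogBiD only regions with scores from 51.7 to 188 and 2 Oct4 only regions, of 229 and 193.

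The sequences below are those of the strongest shared region at Nanog and the strongest NanogBiD only region at Esrrb, since the results at these genes turn on them. They run 50 bp to either side of the NanogBiD summit on the plus strand of GRCm38. Both are in lower case throughout, because none of the octamer, NANOG, SOX and AP-1 letters searched was in the window. TEAD motifs were not among those marked, and the Nanog window does hold a TEAD motif (CATTCCT).
Nanog upstream region, NanogBiD summit, chr6:122702585-122702685: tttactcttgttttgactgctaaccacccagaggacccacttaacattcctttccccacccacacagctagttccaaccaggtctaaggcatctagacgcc
Esrrb intronic region, NanogBiD summit, chr12:86364174-86364274: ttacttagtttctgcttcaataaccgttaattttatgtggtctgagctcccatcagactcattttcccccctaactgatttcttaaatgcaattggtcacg

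Dab2 and Thbd, of the list of fibroblast genes, each had shared regions. Dab2, which encodes an endocytic adaptor of fibroblasts, had 4 shared, 12 NanogBiD only and 10 Oct4 only regions within 100 kb. One shared region lay at a start site inside the gene (178 and 198). Another lay 19.5 kb upstream of the gene, where NanogBiD scored 717 and Oct4 122. Thbd, which encodes thrombomodulin, had 3, 12 and 5, led by a shared region 80.2 kb downstream with scores of 940 (86 tags) and 398 (37 tags). Counted over protein-coding genes, the most regions of all 3 classes lay within 100 kb of the many start sites of Pde4d, a phosphodiesterase gene of 1504 kb: 27 shared, 85 NanogBiD only and 38 Oct4 only. Dnm3, Cdk14, Ank3 and Smg6 followed for shared regions (22, 19, 18 and 15), Auts2, Erc2, Mecom and Smyd3 for NanogBiD only regions (49, 45, 38 and 38), and Ptprm, Rbfox1, Mast4 and Tnik for Oct4 only regions (27, 26, 24 and 24). These are long genes with start sites far apart, from 239 to 1526 kb in length, so the counts are not per length. Rbfox1, a neuronal splicing factor gene, had 1 shared and 22 NanogBiD only regions beside its 26 Oct4 only regions.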

How the data were processed

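Flag CUT&Tag was performed on MEFs at day 3, with 1 library for each of 8 groups. Per the submitters' processing notes and the methods, the authors used Trim Galore 0.6.4 for trimming, Bowtie2 2.4.5 for alignment to mm10 and SAMtools 1.16.1 for filtering (no repetitive or mitochondrial reads, mapping quality of at least 30), and MACS 1.4.2 for peak calling without a control library, keeping 1 tag per position with a shift size of 25 bp, at a p threshold of 1e-05. Reads in repeats and near-identical copies are therefore under-represented. The deposited score is log10 of the p-value from MACS, sign turned and multiplied by 10. The deposited summit height is a signal in whole tags, not scaled to depth. The study's reporting summary lists read pairs per library, with similar totals of uniquely mapped pairs for NanogBiD and Oct4. The peak lists do not give the tags left after filtering and duplicate removal, and no value was scaled to depth. The methods state that replicates were merged before calling, and another statement of the study says that CUT&Tag was performed once. The lists do not settle which holds.

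The software was Python 3.11.15 with pandas 2.3.3, SciPy 1.17.1, NumPy 2.4.6 and matplotlib 3.10.9. No peak ran past a chromosome end of GRCm38, and 25 peaks of both lists lay off the placed chromosomes. Start sites were those of all transcripts in GENCODE M21. Shared regions were placed at their highest-scoring NanogBiD summit. Share intervals are exact (Clopper-Pearson) at 95%, and enrichment intervals come from match counts on the log scale. With 1 library per group no test was possible. The merging, spacing and motif steps were tested on simulated data. Named genes were the listed genes, the genes nearest to the 5 highest-ranked regions of each class, the 5 protein-coding genes with most regions of a class within 100 kb, and Nanog and Pou5f1. Shared regions were ranked by the lower of both ranks. The libraries, gene lists and motifs were chosen with earlier results of these data known. Sequences were the highest-ranked region of each class with its motif on autosomes other than chromosome 18. Another 2 of each class and those at Nanog and Esrrb were added after the values were seen. Ccn1 and Ccn2 stand for Cyr61 and Ctgf.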

Additional observations from a re-analysis of the deposited data

How the results depend on the processing

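No paired analysis was possible because each group holds 1 library and no result comes from a test. Of 131 alternative values 42 lay within the 95% interval of the value reported (for counts, within 1.5 times), 88 lay outside it and 1 changed direction. The order of the promoter shares (shared, NanogBiD only, Oct4 only) was kept in all alternatives run. With the 20000 highest-scoring peaks of each list the Jaccard index was 0.130, the shares of overlapping peaks 23.0% (NanogBiD) and 23.0% (Oct4), the promoter shares 51.5%, 21.4% and 13.2% and the median spacing 85 bp. At a score of at least 100 they were 0.141, 19.7%, 33.2%, 46.0%, 20.4%, 10.4% and 93 bp. With as many NanogBiD as Oct4 peaks they were 0.173, 29.4%, 30.1%, 43.9%, 16.9% and 10.9%, with the spacing within its interval. With an overlap of at least 50% of either peak they were 0.159, 23.6%, 33.1%, 42.4% (shared) and 90 bp. Promoter shares were 33.0%, 8.35% and 2.80% within 500 bp and 36.9%, 12.6% and 6.16% with protein-coding start sites.

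The octamer enrichment at NanogBiD only summits rose to 1.04 in the top 20000, so its value under 1 did not hold there. In the top 20000 the octamer stood at 4.55 (Oct4 summits of shared regions) and 7.72 (Oct4 only), and AP-1 at 4.12 (NanogBiD summits of shared regions) and 2.77 (Oct4 only). With 25 bp to either side the NANOG motif stood at 2.72 (NanogBiD summits of shared regions), the octamer at 5.79 (Oct4 only) and AP-1 at 5.19 (NanogBiD summits of shared regions), 5.96 (NanogBiD only) and 2.55 (Oct4 only). With 100 bp the NANOG motif stood at 1.76 (NanogBiD summits of shared regions) and 2.77 (NanogBiD only), the octamer at 4.45 (Oct4 summits of shared regions) and 5.0 (Oct4 only), and AP-1 at 4.13, 4.73 and 2.13 (NanogBiD summits of shared regions, NanogBiD only, Oct4 only).

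Within 100 kb the counts of genes with a shared, NanogBiD only and Oct4 only region were 4, 8 and 9 (study), 15, 26 and 23 (pluripotency), 14, 16 and 16 (epithelial) and 8, 14 and 15 (neural). Over all protein-coding genes the shares were 77.4%, 87.5% and 84.5%. All genes had each class among mesenchymal (14), fibroblast (19), AP-1 (12), TEAD and Hippo (12), BAF (19) and ribosomal protein genes (24), as the wider range by construction takes in more regions. For distal regions alone, added after seeing the data, the shares found in other libraries were 87.8% (Nanog), 79.1% (Oct4BiD), 44.2% (Sox2), 60.96% (Sox2BiD), 36.2% (Nr5a2) and 37.0% (Nr5a2BiD) for shared regions, 14.9% (Oct4BiD), 20.2% (Sox2), 36.7% (Sox2BiD), 22.3% (Nr5a2) and 19.6% (Nr5a2BiD) for NanogBiD only regions, and 9.83% (Nr5a2) and 8.51% (Nr5a2BiD) for Oct4 only regions. Where no construction shows it, the cause of a change was not tested. A weak peak missing from a list cannot be told from a site without binding.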

Other observations

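The X chromosome held 2616 regions, at 15.3 per Mb against 36.8 to 52 per Mb on the autosomes. Of these 57.4% were NanogBiD only, where the autosomes ranged from 48.2 to 53.4%, 14.2% were shared (14.8 to 18.6% on the autosomes) and 28.4% were Oct4 only (29.5 to 34.6%).

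Oct4 only summits in repeats held the octamer less often than those outside. It lay at 342 of 9470 summits in repeats (3.61%, 3.25 to 4.01%) and at 1406 of 26440 outside (5.32%, 5.05 to 5.60%). In shared regions the shares at the Oct4 summit were 3.18% of 1858 in repeats and 2.84% of 16630 outside. Oct4 only regions without an Oct4BiD peak had their summit in a repeat in 33.7% of 11939 cases (32.9 to 34.6%), and those with one in 22.7% of 23971 (22.2 to 23.2%). Among the Oct4 only peaks in the top 20000 of the list the share was 23.6%.

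The motif of CTCF, a factor that anchors chromatin loops, was counted by the same method and appeared at few summits. It lay at 133 NanogBiD only summits (0.233%, enrichment 4.09), at 55 NanogBiD and 65 Oct4 summits of shared regions (3.24 and 4.06) and at 31 Oct4 only summits (1.41, 0.890 to 2.23). The NR5A motif, that of Nr5a2, was less frequent at summits than in flanks in every class, with enrichments from 0.441 to 0.628.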
